A study of Mus musculus with 6 samples.

Results

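The ISG15 conjugation system was followed through 6 genes: the ubiquitin-like modifier Isg15, the activating enzyme Uba7, the conjugating enzyme Ube2l6, the ligases Herc6 and Trim25, and the deconjugating protease Usp18. They were picked by gene name, through the Ensembl identifiers of the tables, and made up 6 of the 22556 genes listed. Pancreas RNA was sequenced from 6 wild-type C57BL/6 mice labelled as 8 weeks old, 2 in each of 3 groups. Saline mice served as controls. Acute pancreatitis (AP) mice received caerulein, a secretagogue that overstimulates the enzyme-producing acinar cells, and polyI:C-pretreated AP mice (pretreated mice from here on) received the double-stranded RNA mimic polyI:C at 10 mg/kg before caerulein. Per the methods, mice not given polyI:C were injected with saline in its place, caerulein was given 10 times at hourly intervals, and tissue was taken 24 h after the first dose. The methods name both 1 and 8 h between polyI:C and caerulein without tying either to the sequenced mice, and no mouse analysed here had polyI:C without caerulein.

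ISG15 is a small protein built of a tandem pair of ubiquitin-like folds, and its gene is among those most readily induced by type I interferon. UBA7 activates ISG15, UBE2L6 takes it over, and a ligase attaches it to lysines of target proteins. HERC6 is the main ISG15 ligase of the mouse, and TRIM25 is a ubiquitin ligase that acts on the RNA sensor RIG-I and has also been described as an ISG15 ligase. USP18 removes ISG15 from its targets and, apart from its protease activity, binds the interferon receptor chain IFNAR2 and dampens interferon signalling.

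Promoter sequences from RefSeq (GRCm38.p6) were matched for 5 of the 6 members, all but Usp18. Each window holds 300 bases, 250 before the start site and 50 from it on. The windows of the members with the highest and the lowest fold change with polyI:C among these 5, Isg15 and Trim25, are printed because they were the ones with a match to the core of the interferon-stimulated response element. Both read 5′ to 3′ in the direction of the gene, with matches to GAAANNGAA on either strand in capitals. The Isg15 window is chr4:156200769-156201068 on the minus strand, and the Trim25 window is chr11:88999153-88999452 on the plus strand.
Isg15: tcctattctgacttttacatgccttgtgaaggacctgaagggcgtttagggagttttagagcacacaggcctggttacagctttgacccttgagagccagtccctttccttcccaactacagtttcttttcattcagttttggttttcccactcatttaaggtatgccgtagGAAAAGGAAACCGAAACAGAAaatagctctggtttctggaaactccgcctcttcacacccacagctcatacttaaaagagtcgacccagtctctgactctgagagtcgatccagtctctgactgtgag
Trim25: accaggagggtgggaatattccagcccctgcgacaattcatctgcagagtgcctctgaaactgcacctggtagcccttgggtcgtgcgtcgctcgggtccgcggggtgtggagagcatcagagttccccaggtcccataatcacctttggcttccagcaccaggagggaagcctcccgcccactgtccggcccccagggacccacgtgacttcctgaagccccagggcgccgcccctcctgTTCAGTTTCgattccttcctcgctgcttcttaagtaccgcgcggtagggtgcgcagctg

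The Isg15 window held 3 overlapping matches in a row, GAAAAGGAA, GAAACCGAA and GAAACAGAA, beginning 78, 72 and 66 bases before the start site. Trim25 had 1 match, TTCAGTTTC, which is the core read on the opposite strand, beginning 9 bases before the start site. The windows of Uba7, Ube2l6 and Herc6 had none, and no window of the 5 genes contained the interferon-gamma-activated site TTCNNNGAA. Of all 32851 promoter windows of this length, 8.56% held the response element core and 8.3% the activated site. A match describes the letters of a window and is not a measurement of binding.

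Isg15 lies on chromosome 4 (156199424 to 156200818, minus strand, GRCm38). The other members, all on the plus strand, lie on chromosome 9 (Uba7, 107975505 to 107984060), chromosome 2 (Ube2l6, 84798828 to 84810335), chromosome 6 (Herc6, 57581000 to 57664632, and Usp18, 121245906 to 121270917) and chromosome 11 (Trim25, 88999376 to 89020293). Expression is given in TPM (transcripts per 1000000), a measure per gene length, so that genes can also be compared with each other. TPM does not state the reads behind a value, and these were estimated from the spacing of low values. The estimates were 3299129 to 3974590 reads for saline, 6936946 to 8879365 for AP and 8827201 to 10861080 for pretreated mice. The short Isg15 transcript (756 exonic bases) therefore rested on about 5 and 3 reads after saline, against 130 and 184 reads after pretreatment.

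All 6 members were lowest in saline, intermediate in AP and highest in pretreated mice, with no overlap between the mice of any groups. This stepwise order without overlap was met by 11.8% of the 16814 genes tested. For single steps, 52.6% of all genes were higher without overlap in AP against saline mice, 27.7% in pretreated against AP mice and 54.4% in pretreated against saline mice. The sizes of the steps differed between members. Isg15 rose more with polyI:C, to 6.96 times the AP level in mean TPM after 2.54 times with caerulein. Uba7, Ube2l6 and Herc6 were at 3.59, 3.86 and 3.66 times the saline level in AP mice and at 1.95, 2.69 and 2.15 times the AP level in pretreated mice. Usp18 stood at 4.97 and 5.38 times for these steps, and Trim25, by far the highest member in saline mice, at 1.23 and 1.56 times. The difference between a gene's steps was not tested.

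**Figure D1:**
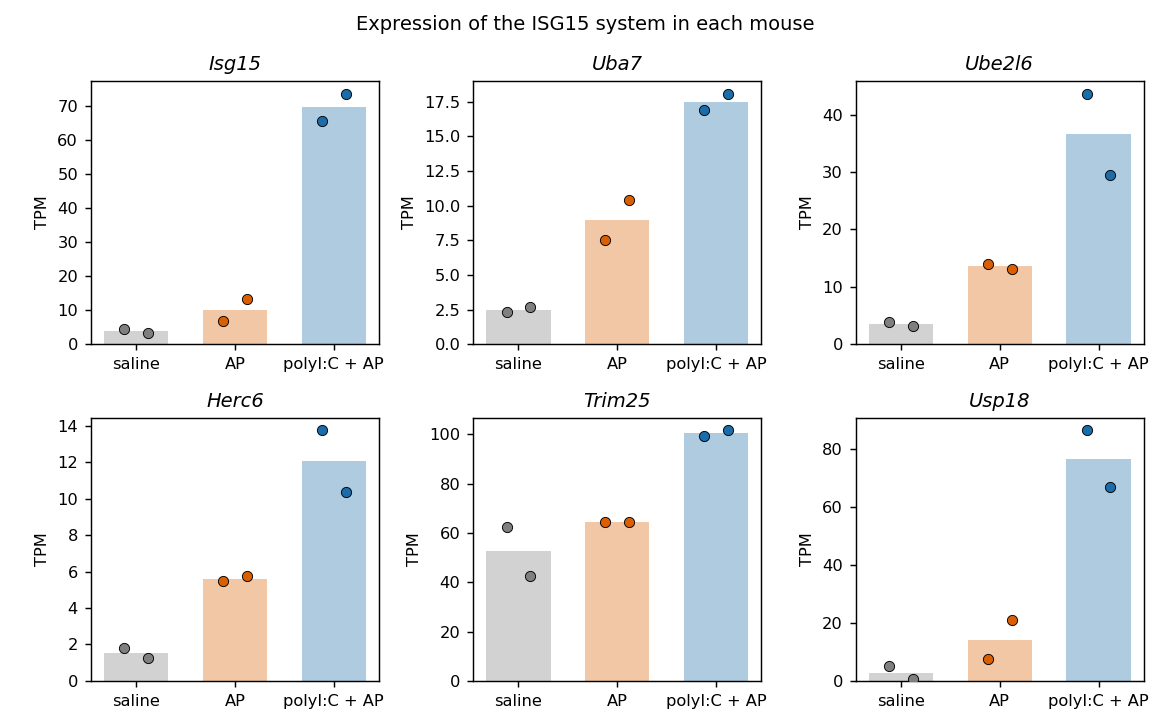
Expression of each member in TPM (vertical axes, linear, starting at 0 and scaled per gene) in the saline, the AP and the pretreated mice. Points are mice and bars are means of 2. In every panel both pretreated mice lie above both AP mice, for Isg15 at 65.6 and 73.8 TPM against 6.81 and 13.2 TPM.

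Isg15 (ENSMUSG00000035692), the modifier itself, was measured at 4.53 and 3.34 TPM after saline, 6.81 and 13.2 TPM after caerulein alone, and 65.6 and 73.8 TPM after polyI:C and caerulein. The groups did not overlap, and the AP mice differed from each other by more than the lower of them differed from the saline mice. Both pretreated mice lay far above all others.

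Uba7 (ENSMUSG00000032596), the activating enzyme at the head of the cascade, was found at 2.32 and 2.69 TPM after saline, 7.53 and 10.4 TPM after caerulein alone and 16.9 and 18.1 TPM after pretreatment. The spread within each group was smaller than the gap to the next. Ube2l6 (ENSMUSG00000027078), which receives ISG15 from UBA7, gave 3.91 and 3.13 TPM, 14.0 and 13.1 TPM, and 43.7 and 29.4 TPM in the same order. The AP mice were close to each other, while the pretreated mice differed by nearly as much as the gap that separated them from AP.

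Herc6 (ENSMUSG00000029798), the ligase, had the lowest mean of the 6 genes over all mice. Its values were 1.83 and 1.24 TPM after saline, 5.49 and 5.75 TPM after caerulein alone and 13.8 and 10.4 TPM after pretreatment, so the AP mice were almost equal and stood clear of both other groups. For Trim25 (ENSMUSG00000000275), the ligase better known for RIG-I, they were 62.5 and 42.7 TPM, 64.7 and 64.6 TPM, and 99.6 and 102 TPM. The higher saline mouse came close to the AP mice, whereas the pretreated mice were well separated from both groups.

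Usp18 (ENSMUSG00000030107), the deconjugase, varied widely between mice of a group. Its values were 5.03 and 0.714 TPM after saline, where the lower one rests on about 2 reads, 7.40 and 21.1 TPM after caerulein alone, and 86.5 and 67.0 TPM after pretreatment. Both pretreated mice lay far above the AP mice, and the lower AP mouse was nearer to the higher saline mouse than to the other AP mouse.

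To ask which of these steps exceeded the spread between mice, limma was fitted to log2(TPM + 0.5) of all tested genes. A gene was counted as raised or lowered when it differed at least 2-fold with a Benjamini-Hochberg adjusted p no higher than 0.05. In AP against saline mice, 5 of the 6 members were raised, where 18.1% of all genes tested were raised and 4.0% lowered. The rises were 1.64 on the log2 scale for Uba7 (standard error 0.19, adjusted p = 0.00092), 1.81 for Ube2l6 (0.25, adjusted p = 0.0016) and 1.60 for Herc6 (0.21, adjusted p = 0.0015). Usp18 rose by 2.33 (0.74, adjusted p = 0.043) and Isg15 by 1.19 (0.35, adjusted p = 0.035). Trim25 had a log2 fold change of 0.32 (0.17, adjusted p = 0.19), which turned to -0.13 under median-of-ratios scaling. The members' median was 1.62, beside 0.45 over all genes tested. That general shift came to 0.04 under median-of-ratios scaling, where the members' median was 1.24 and the share of raised genes among those raised or lowered went from 81.9% to 54.5%.

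The rises of Isg15 and Usp18 in AP mice depended on the processing and on single mice. Under median-of-ratios scaling their log2 fold changes were 0.78 and 1.96 with adjusted p = 0.14 and 0.092. Over 16 alternatives the adjusted p ran from 0.030 to 0.34 for Isg15 and from 0.020 to 0.32 for Usp18. Of the 6 fits that left out 1 mouse, Isg15 passed in the one without AP replicate 1 (1.64) and Usp18 in the one without saline replicate 1 (3.43). The lowest estimates were 0.73 for Isg15 and 1.61 for Usp18 without AP replicate 2, and 1.24 for Usp18 without saline replicate 2. Uba7 and Herc6 passed under every alternative, and Ube2l6 under all but limma-voom on estimated reads (adjusted p = 0.059).

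Pretreated mice were then compared with AP mice to read what polyI:C added. Isg15 rose by 2.81 on the log2 scale (standard error 0.35, adjusted p = 0.024) and was the 1 member raised, where 0.452% of all genes were raised and 0.434% lowered. Its rise ranked 161 among the 16814 genes. Usp18 had a log2 fold change of 2.55 (0.74, adjusted p = 0.19), at rank 215. The values were 1.37 for Ube2l6 (0.25, adjusted p = 0.061), 1.03 for Herc6 (0.21, adjusted p = 0.084), 0.94 for Uba7 (0.19, adjusted p = 0.082) and 0.63 for Trim25 (0.17, adjusted p = 0.17). At an unadjusted p of 0.05 without a minimum fold, all 6 were higher, as were 7.84% of all genes. With the minimum of 2-fold kept, 4 of 6 members and 1.96% of all genes passed unadjusted. The median of the members was 1.20, beside 0.04 over all genes tested.

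The call of Isg15 with polyI:C rested on all mice being present. No member kept a call by limma when 1 mouse was left out. Such fits leave 1 group with a lone mouse, and over the whole table fewer genes passed in each of them as well. Isg15 had a log2 fold change between 2.35 and 3.26 in these fits. With limma-voom on the estimated reads, Isg15, Ube2l6, Herc6 and Usp18 were raised, where 0.672% of all genes were raised.

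Against saline, the pretreated mice showed the full distance. Usp18 rose by 4.89 on the log2 scale (standard error 0.74, adjusted p = 0.0027), Isg15 by 3.99 (0.35, adjusted p = 0.00036), Ube2l6 by 3.18 (0.25, adjusted p = 0.00024), Herc6 by 2.63 (0.21, adjusted p = 0.00028) and Uba7 by 2.58 (0.19, adjusted p = 0.00021). These 5 members were raised, where 16.9% of all genes were raised and 2.97% lowered. Trim25 was higher by 0.95 (0.17, adjusted p = 0.0055), under the 2-fold limit. Its log2 fold change was 1.23 without saline replicate 1 and 0.48 under median-of-ratios scaling. Usp18 missed the adjusted p without either pretreated mouse, at 4.70 and 5.07 with adjusted p = 0.069 and 0.064. The median of the members was 2.91, and 2.49 under median-of-ratios scaling, beside 0.48 and 0.04 over all genes tested. That scaling moved the share of raised genes from 85.0% to 55.5%. The 3 comparisons share mice, so their counts are not independent, and an exact permutation test of 2 mice against 2 could not give a two-sided p below 0.333.

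**Figure D2:**
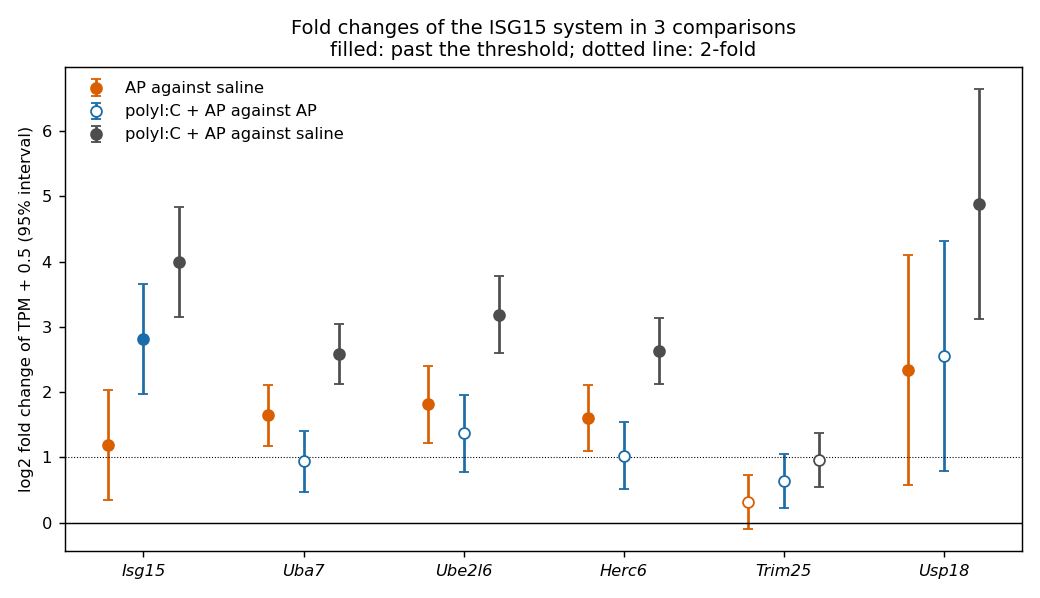
Log2 fold change of TPM + 0.5 (vertical axis) of each member in the 3 comparisons, with limma's 95% interval as bars. Filled symbols are past the adjusted p and the 2-fold minimum, and the dotted line marks 2-fold. In pretreated against AP mice Isg15, at 2.81, is the filled symbol, and the intervals of Usp18 are the widest.

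Since TPM is per length, the balance of the members could be read within each mouse. The 6 genes summed to 80.1 and 53.8 TPM after saline, 106 and 128 TPM after caerulein alone, and 326 and 300.4 TPM after pretreatment. Trim25 took 78.0% and 79.4% of that sum in saline mice, 61.1% and 50.4% in AP mice and 30.5% and 33.9% in pretreated mice. Isg15 and Usp18 together held 11.9% and 7.54%, 13.4% and 26.8%, and 46.7% and 46.9%. The make-up thus moved from mostly Trim25 to one in which Trim25 held less than Isg15 and Usp18 together.

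**Figure D3:**
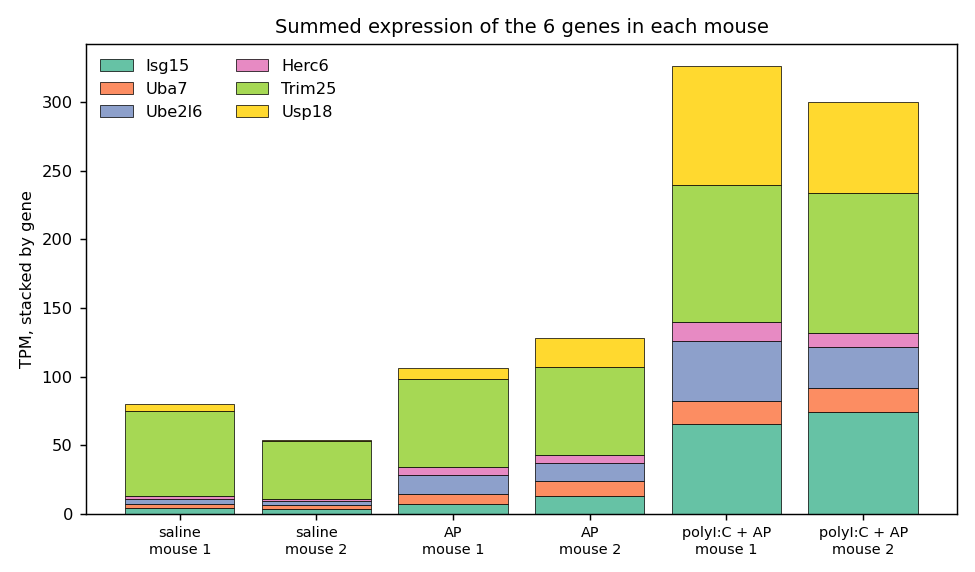
TPM of the 6 members stacked in each mouse (vertical axis, starting at 0). The sum is 80.1 and 53.8 TPM in saline mice and 326 and 300.4 TPM in pretreated mice, and the share of Trim25 is smallest in the latter.

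The modifier and its activating enzyme were of similar level in the mice without polyI:C. Isg15 was 1.95 and 1.24 times Uba7 in saline mice and 0.905 and 1.27 times in AP mice, which overlap, and 3.88 and 4.08 times in pretreated mice. Relative to the conjugating enzyme Ube2l6, Isg15 was at 1.16 and 1.07 times, 0.485 and 1.01 times, and 1.50 and 2.51 times, again highest in pretreated mice. Among the ligases, Trim25 was 34.1 and 34.6 times Herc6 in saline mice, 11.8 and 11.2 times in AP mice and 7.24 and 9.79 times in pretreated mice, with no overlap. The deconjugase kept no such order against the modifier. Usp18 was 1.11 and 0.214 times Isg15 in saline mice, 1.09 and 1.60 times in AP mice and 1.32 and 0.908 times in pretreated mice, and all groups overlapped. These ratios describe 2 mice per group and were not tested. In saline mice they rest on few reads, about 5 and 3 for Isg15 and 20 and 2 for Usp18.

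Across the 6 mice, the log2 values of the members correlated pairwise with r between 0.85 (Uba7 and Trim25) and 0.997 (Ube2l6 and Herc6), as a description of points that share libraries and the same steps between groups. Among 9395 genes averaging 10 TPM or more, those closest to Isg15 in the size and shape of their profile were Oasl2, Ifit3, B2m, Gbp3 and Bst2, at root mean square differences from 0.16 to 0.30 on the log2 scale. Oasl2 and Ifit3 are interferon-induced antiviral genes, B2m is the light chain of MHC class I, Gbp3 is an interferon-induced GTPase and Bst2 tethers budding virus to the membrane. Bst2 was at 57.9 ± 5.76 TPM in saline, 187 ± 21.3 TPM in AP and 977 ± 23.2 TPM in pretreated mice (SD, n = 2). The nearest member to Isg15 was Ube2l6 at 0.69. Usp18 had no equally close match, with Oas1a, Gbp3, Reg3g, Lgals9 and Oasl2 from 0.59 to 0.66 and Isg15 at 0.75.

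Genes around the system were read as lists, some of which overlap: Stat2, Mx1 and Ddx58 each stand in more than 1. Of 14 partners of ISG15 or USP18, which include further enzymes and the chains of LFA-1, an integrin that binds free ISG15, 13 were tested. In AP against saline mice 7 were raised and 1 was lowered, with the integrin chain Itgb2 rising most (2.14, adjusted p = 0.0062) and the protease Usp2 falling (-1.48, adjusted p = 0.0069), where 18.1% of all genes were raised. The raised count was 2 under median-of-ratios scaling, 3 without AP replicate 2 (with 0 lowered), and 4 without AP replicate 1 or either pretreated mouse. None passed in pretreated against AP mice with limma, where 1 was higher and 1 lower at an unadjusted p of 0.05, while limma-voom had 1 raised and 1 lowered, and 1 was lowered without either saline mouse. Against saline mice, 6 were raised and 1 lowered in pretreated mice, with 2 raised under median-of-ratios scaling.

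Stat2, which USP18 needs to reach the receptor, was at 10.5 ± 5.03, 27.8 ± 4.28 and 60.4 ± 3.89 TPM in saline, AP and pretreated mice (SD, n = 2). It rose by 1.43 in AP against saline mice (adjusted p = 0.0089), had a log2 fold change of 1.11 in pretreated against AP mice (adjusted p = 0.16) and rose by 2.55 in pretreated against saline mice (adjusted p = 0.0010). The receptor chain Ifnar2 rose by 1.25 in AP mice (adjusted p = 0.0049) and had a log2 fold change of -0.22 with polyI:C (adjusted p = 0.74). Itgb2 had one of -1.58 with polyI:C (adjusted p = 0.14), and its partner chain Itgal one of 0.41 (adjusted p = 0.71).

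The enzymes and modifiers of ubiquitin and its other relatives were set beside the members. Of 18 tested, 4 were raised in AP against saline mice, Uba6 most (1.23, adjusted p = 0.0016), a share near the 18.1% of all genes raised. The raised count was 0 under median-of-ratios scaling, 1 with limma-voom and 2 without AP replicate 2. None passed in pretreated against AP mice with limma or limma-voom, and 1 was higher and 2 were lower at limma's unadjusted p of 0.05. Against saline, the pretreated mice had 4 raised, the ubiquitin-like modifier Nedd8 most (1.28, adjusted p = 0.00046), and 0 raised under median-of-ratios scaling. Ube2l3, the close relative of Ube2l6 that carries ubiquitin, was at 8.55 ± 0.158, 16.0 ± 1.68 and 15.6 ± 1.89 TPM (SD, n = 2), a log2 fold change of -0.03 with polyI:C. The ubiquitin-activating enzymes Uba1 and Uba6 had log2 fold changes of 0.03 and -0.06 with polyI:C, and Herc1, Herc2, Herc3 and Herc4 of the HERC family had 0.32, 0.06, 0.19 and -0.16. The list's median was -0.04 with polyI:C and 0.68 in AP against saline mice, beside 0.04 and 0.45 over all genes.

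Of 16 genes for proteins described as targets of ISG15, Trim25 among them, 10 were raised in AP against saline mice, the antiviral GTPase Mx1 most (2.45, adjusted p = 0.0021), where 18.1% of all genes were raised. The count was 4 under median-of-ratios scaling. None passed with polyI:C by limma or limma-voom, and 4 were higher and 1 lower at limma's unadjusted p of 0.05. Against saline, 10 were raised in pretreated mice, with the RIG-I gene Ddx58 rising most (2.67, adjusted p = 0.00013), and 6 under median-of-ratios scaling or with limma-voom. The median was 1.20 in AP against saline mice and 0.06 with polyI:C, beside 0.45 and 0.04 over all genes.

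Of the 32 listed interferon-response genes outside the ISG15 system, 31 were tested. In AP against saline mice 25 of them were raised, where 18.1% of all genes were raised. That number was 21 under median-of-ratios scaling and 19 with limma-voom. The antiviral radical-SAM enzyme Rsad2 rose most (4.39, adjusted p = 3.4e-05). In pretreated against AP mice 13 were raised, the transcription factor Irf7 most (4.01, adjusted p = 0.0036), where 0.452% of all genes were raised. In pretreated against saline mice all 31 were, and 30 under median-of-ratios scaling or with limma-voom, where 16.9% of all genes were raised in the main fit. The count of 13 was 5 without either saline mouse and 0 without any one of the AP or pretreated mice, where 23 to 27 were higher at limma's unadjusted p of 0.05. It was 8 with no filter on low values, 5 with a prior following the mean log2 value or with only the groups compared, 2 with one prior variance and 17 with limma-voom. The medians of the first 2 comparisons were 1.78 and 1.39, beside 1.62 and 1.20 for the ISG15 system. Mx1, unlike the members, was not higher with polyI:C in its point estimate (-0.20, adjusted p = 0.87). Interferon genes themselves were not analysed here.

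**Figure D4:**
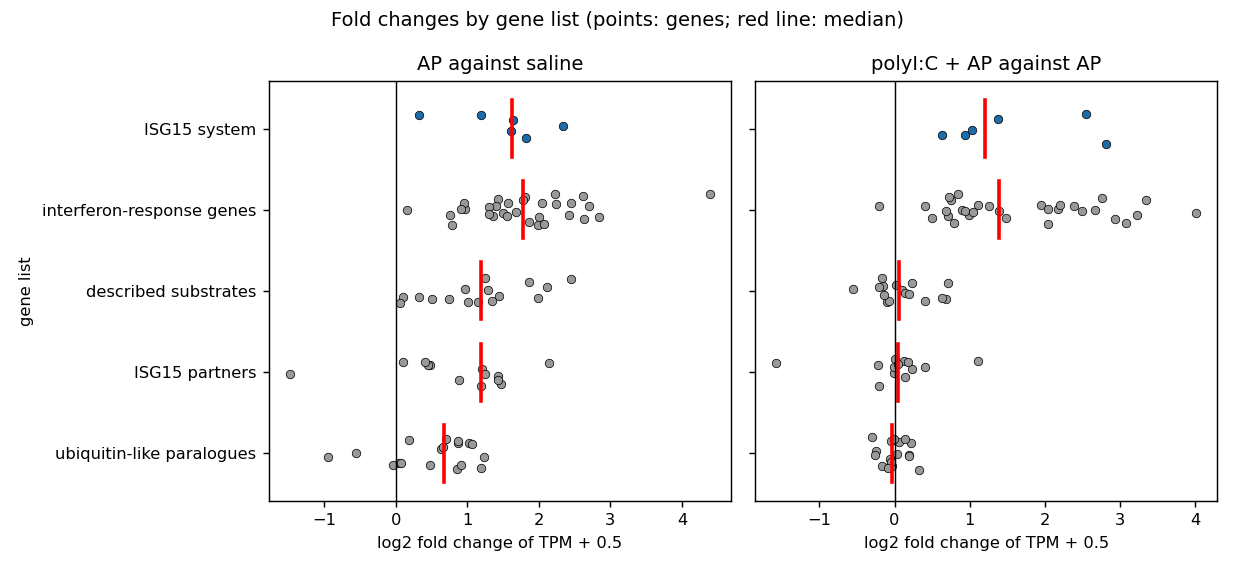
Log2 fold change of TPM + 0.5 (horizontal axes) of the tested genes of each list in AP against saline mice (left) and polyI:C-pretreated AP against AP mice (right). Points are genes and red lines are medians. With polyI:C the medians are 1.20 for the ISG15 system and 1.39 for the other interferon-response genes, and lie between -0.04 and 0.06 for the remaining 3 lists.

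Cell type markers moved between the same groups. The 6 macrophage markers summed to 346 to 508 TPM in saline, 2088 to 2332 TPM in AP and 172 to 258 TPM in pretreated mice. Lyz2 made up most of that sum, and the other 5 markers came to 38.3 to 64.3, 197 to 214 and 53.1 to 54.6 TPM, with saline and pretreated mice overlapping. Of the 6, 5 were raised in AP against saline mice and 4 lowered in pretreated against AP mice. In pretreated against saline mice Cd68 was raised (1.78, adjusted p = 0.0012), Lyz2 and Csf1r were lowered, and the median was -0.21. Of 10 acinar markers, which define the labelled tissue, the 4 analysed (Amy2a5, Ptf1a, Bhlha15 and Rbpjl) were present in every mouse and summed to 775 to 964, 187 to 235 and 478 to 518 TPM. Of these, 3 were lowered in AP against saline mice, 3 raised in pretreated against AP mice and 2 lowered in pretreated against saline mice. Ptf1a passed in none and did not follow the sum, at means of 42.6, 49.3 and 82.8 TPM. The 4 duct markers summed to 76.5 to 76.7, 1047 to 1078 and 800 to 821 TPM, most of it Krt19, and without Krt19 to 14.1 to 25.5, 31.2 to 36.9 and 32.9 to 52.6 TPM. None of the 4 passed in pretreated against AP mice, where 1 was lower at limma's unadjusted p of 0.05 and the median was 0.02. The sums were at most 45.1, 104 and 80.7 TPM for the 4 stellate and fibroblast markers, and they were 856 to 1091, 943 to 1009 and 418 to 703 TPM for the 4 islet markers. Endothelial markers stayed between 37.7 and 65.6 TPM in all mice.

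Markers of lymphoid cells, neutrophils and plasmacytoid dendritic cells were read in the same way. Of 7 T and NK cell markers, Gzma was listed at 0 TPM in the saline and AP mice and at 26.9 and 47.0 TPM in pretreated mice, while Nkg7 and Cd3e were below 2 TPM in every mouse. The 6 markers other than Gzma summed to 3.87 to 5.67, 3.37 to 6.00 and 3.08 to 5.99 TPM, and all groups overlapped. The 3 neutrophil markers analysed, of 5, summed to 2.38 to 14.1, 28.8 to 32.2 and 17.0 to 32.9 TPM. Of these, 1 was raised in AP against saline mice and none passed in pretreated against AP mice. The 3 plasmacytoid dendritic cell markers summed to 62.8 to 71.6, 180 to 210 and 968 to 1001 TPM, nearly all of it from the interferon-inducible Bst2. Without Bst2 the other 2 came to 8.91 to 9.60, 7.36 to 7.40 and 7.08 to 7.13 TPM. The 4 B cell markers summed to at most 13.7 TPM in saline and to 2.19 to 8.99 TPM in pretreated mice. In AP mice they summed to 5.89 and 42.0 TPM, and none passed in any comparison. The higher AP sum belonged to replicate 2. That mouse had the higher Isg15, Usp18, Uba7 and Herc6 of the AP mice and the lower Ube2l6 and Trim25. The part of cell composition in the levels of the members was not tested, and in whole tissue fewer cells of a type and less RNA per cell cannot be told apart.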

How the data were processed

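Pancreas RNA of 6 mice was read from 1 table per mouse. The authors deposited TPM values per gene. Trimmomatic, STAR, HTSeq, DESeq2 and mm10 are named in the submitters' processing notes, and the versions and the step from reads to TPM are not given in the sources used here. The labels and the methods name different library kits, a ribosomal RNA depletion kit among them. Of 22556 identifiers, 22490 were found in GENCODE M21 (GRCm38, the assembly of mm10), the source of symbols, exon lengths and coordinates.

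The members and gene lists were chosen with earlier results of these data known. Groups came from the treatment label. limma 3.58.1 (R 4.3.3) was fitted to log2(TPM + 0.5) of the 16814 genes averaging at least 1 TPM, with 1 coefficient per group and a prior variance following log2(mean TPM × exon length + 1). All mice shared the spread. Fold changes on this scale understate the change of low genes. No source says that the mice were handled separately, so p-values measure the spread between these samples, which may be technical. The fit was also run on simulated reads with the same relative spread for every gene and no general shift between groups. That setting is simpler than these data, so the run does not bear on how the calls depend on the processing.

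Reads were estimated from the step in which low values of TPM × exon length are spaced. Between 33.7% and 38.5% of the low values lay within 0.1 of a whole multiple, against 19.5% to 21.4% with lengths shuffled, so the estimates are rough. They were used in the limma-voom alternative and to state the approximate reads behind low values. The named genes are the 6 members, the 5 genes closest in profile to Isg15 and to Usp18, paralogues and partners named beforehand, and the largest rise and fall past the threshold in each list. Mx1 in pretreated against AP mice and the named cell type markers were singled out after their values were seen.

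Of 100-base stretches, 10.3% of Herc6 were shared with the overlapping transcript Gm45193, 1.69% of Uba7 with Gm20661, 1.00% of Usp18 with Gm44148, 0.735% of Ube2l6 with Gm17167, and none of Isg15 and Trim25, so part of the reads of these genes may be split. Same-numbered mice of different groups had deviations from their group means that correlated across genes at 0.0075, 0.035 and -0.0039. The numbers were therefore not used as pairs. A protein comparison was planned and not made. The result of 1 gene of the lists is not reported here.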

Additional observations from a re-analysis of the deposited data

How the results depend on the processing

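The number of raised members was recomputed under 18 alternatives per comparison. In pretreated against saline mice it ran from 4 to 6, also when 1 mouse was left out. In AP against saline mice it was 5, and 3 with no filter on low values, with median-of-ratios scaling, with one prior variance for all genes and with only the groups compared, and 2 with limma-voom on estimated reads. Leaving out 1 mouse gave from 3 to 4. In pretreated against AP mice it was 1, and 0 with no filter, with a prior following the mean log2 value, with one prior variance and with only the groups compared, although all 6 members kept an unadjusted limma p under 0.05 in these 4 fits. There it was 2 at a mean of at least 5 TPM, 4 with limma-voom and 4 at an unadjusted p, and 0 in each fit without 1 mouse. The cause was not tested. Trim25 in AP against saline mice turned to -0.13 with median-of-ratios scaling, the 1 reversal among the members.

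Over the whole table, 3042 genes were raised and 673 lowered in AP against saline mice, and 1515 and 1265 with that scaling. In pretreated against saline mice these counts were 2837 and 499 against 1269 and 1018. In pretreated against AP mice they were 76 and 73, with 113 and 214 by limma-voom, 14 and 14 with a prior following the mean log2 value, and 0 of either without AP replicate 1, without AP replicate 2 or without the pretreated replicate 2. They were 60 and 5 without the pretreated replicate 1, and 29 to 30 and 34 to 38 without 1 of the saline mice. With the replicate number as a replicate block, 4, 1 and 5 members were raised in AP against saline, pretreated against AP and pretreated against saline mice, Usp18 being lost in the first (adjusted p = 0.053). A fit without 1 mouse assumes that the lone mouse of that group varies like the others. Depth limits the saline values most, where Isg15 rests on 3 to 5 and Usp18 on 2 to 20 estimated reads.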
